A study of Mus musculus with 12 samples.

Results

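Ubiquitin-activating, conjugating and ligase genes and deubiquitinase genes were followed across 12 mouse cDNA arrays. The members were all genes whose single symbol begins with Uba, Ube2 to Ube4, Usp and a digit, Uchl, Otub, Otud, Josd, Cul and a digit, Fbxo, Fbxw or Fbxl. They came to 125 of the 8708 genes with 1 symbol, represented by 228 probes. By role these were 2 activating enzymes (E1), 27 conjugating enzymes (E2), 4 HECT and U-box ligases, 6 cullins, 39 F-box proteins, 36 ubiquitin-specific proteases, 3 UCH hydrolases, 6 OTU proteases and 2 Josephin proteases. A value on every array existed for 104 of the members.

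Each array carried RNA of experimental mice in one dye and RNA of B6 mice in the other, and each of the 6 groups had 2 arrays. The strain groups were spleen T cells of NOD.H2h4 mice, which carry another major histocompatibility (MHC) haplotype on the NOD background, spleen T cells of NOD mice, which become diabetic spontaneously, and spleen T cells and kidney cells of B6.NODIdd1,5 mice. B6.NODIdd1,5 is B6 carrying 2 NOD diabetes intervals, Idd5 of chromosome 1 and Idd1 of chromosome 17, where the MHC lies. The marrow groups were spleen T cells of NODtoB6 mice, B6 recipients of NOD marrow, and of B6toNOD mice, NOD recipients of B6 marrow. The B6 channel held kidney cells for the kidney arrays and spleen T cells for the other 10. Recipients can keep T cells of their own, and the sources used here give neither the share of donor cells, nor a sort of the T cells, nor the age or sex of the mice. The replicates are not stated to be separate animals, so p-values measure only the spread between these arrays. The dyes of the marrow arrays are not given either, and their direction was taken to be that of the strain arrays, which are labelled Cy5 for the experimental RNA and Cy3 for B6.

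Ubiquitin is activated by an E1, passed to an E2 and joined to a substrate with the help of an E3 ligase, which chooses the substrate. The largest E3 family is built on cullins. Cul1 holds Skp1 and one of many F-box proteins, the substrate receptors, while most other cullins use other adaptors, and cullins are switched on by the ubiquitin-like protein NEDD8. Deubiquitinases remove or trim ubiquitin chains. In T cells this machinery sets the turnover of signalling proteins, cyclins and antigen receptors, and in erythroid precursors it clears proteins during maturation.

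Ube2c and Ube2t are both E2 genes of dividing cells. Ube2c serves the anaphase-promoting complex (APC/C), the ligase that ends mitosis, and Ube2t serves the Fanconi anaemia ligase in DNA crosslink repair. Their promoter windows are shown because both passed the threshold in several groups described below, with opposite signs in both B6.NODIdd1,5 tissues and the same sign in NODtoB6 T cells. Each runs from 250 bases before to 50 bases after the annotated start, 5′ to 3′ on the plus strand, from RefSeq on GRCm38.p6. The Ube2c window is chr2:164769679-164769978 and the Ube2t window chr1:134962315-134962614. Capitals mark CCAAT on either strand (ATTGG on the other) and TTTGAA on either strand (TTCAAA on the other).
Ube2c: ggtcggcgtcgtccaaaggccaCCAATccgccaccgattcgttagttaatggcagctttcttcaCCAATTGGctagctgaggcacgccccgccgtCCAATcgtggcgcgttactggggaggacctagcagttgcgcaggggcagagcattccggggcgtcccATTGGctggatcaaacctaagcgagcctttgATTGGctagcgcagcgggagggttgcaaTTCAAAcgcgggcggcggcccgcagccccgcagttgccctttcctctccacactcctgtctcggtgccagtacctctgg
Ube2t: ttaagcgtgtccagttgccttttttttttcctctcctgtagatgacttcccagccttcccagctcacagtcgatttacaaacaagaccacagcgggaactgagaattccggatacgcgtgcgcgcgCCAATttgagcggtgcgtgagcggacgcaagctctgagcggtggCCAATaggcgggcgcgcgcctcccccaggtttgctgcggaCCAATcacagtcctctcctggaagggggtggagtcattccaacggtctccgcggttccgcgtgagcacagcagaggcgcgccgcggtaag
The Ube2c window held CCAAT at 3 places on the strand shown and 3 on the other, with 1 of each overlapping in a shared run, and TTTGAA at 1 place on the other strand. The Ube2t window held CCAAT at 3 places on the strand shown and neither TTTGAA nor TTCGAA. Of all 32851 windows of this length 37.4% held CCAAT on either strand, 17.9% TTTGAA and 1.56% TTCGAA, against 22.3%, 9.92% and 2.48% of the 121 windows of the 96 members that had one. CCAAT at 3 or more places was found in 3.37% of all windows. A match of letters is a description and not a binding site.

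Values below are log2 ratios of the experimental RNA to B6 RNA after each array was centred on its median, so that higher and lower are relative to the typical feature of that array. Centring removed a median of -0.80 in NOD.H2h4 T cells, -0.15 in NOD T cells, -0.18 in B6.NODIdd1,5 T cells, -0.46 in B6.NODIdd1,5 kidney, -0.23 in NODtoB6 T cells and -0.76 in B6toNOD T cells. A ratio holds no level, so the labelled tissue could not be checked by abundance. Arrays gave values for 18837 to 20558 probes, and Spearman's correlation over the members between the arrays of a group lay between 0.51 and 0.74. Errors are the fit's standard errors with n = 2 arrays in each group. P-values come from limma, adjusted by the Benjamini-Hochberg method over all features, with a threshold of 0.05. Markers of other cells moved with several groups. Of 7 myeloid markers 4 were higher and 2 lower in NOD.H2h4 T cells (median 0.41), 4 and 0 in NOD T cells (0.54), 1 and 3 in B6.NODIdd1,5 T cells (-0.44), 1 and 2 in B6.NODIdd1,5 kidney (-0.13), and 6 and 0 in both NODtoB6 (1.29) and B6toNOD T cells (2.46). Of the 6 or 7 erythroid markers tested, 3 were higher and 1 lower in NOD.H2h4 T cells (median 0.35), 3 and 1 (1.16) in NOD T cells, 1 and 6 (-0.60) in B6.NODIdd1,5 T cells, 1 and 1 (0.015) in congenic kidney, 5 and 1 (0.89) in NODtoB6 and 3 and 1 (0.14) in B6toNOD T cells. T cell markers had 0 higher and 3 lower of 4 in B6.NODIdd1,5 T cells (median -0.81) and 0 higher and 2 lower of 5 in congenic kidney (median -0.66), and at most 1 called in either direction elsewhere. B cell markers had 0 to 3 higher and 0 or 1 lower of 6 or 7 in each group. Kidney markers had 0 higher and 3 lower of 4 in NOD.H2h4 T cells, 0 higher and 2 lower of 3 in B6toNOD T cells and 2 higher and 0 lower of 4 in congenic kidney, and at most 1 called in either direction elsewhere. In such bulk RNA, fewer cells of a type and less RNA per cell cannot be told apart. Their part in the results below was not tested.

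**Figure D1:**
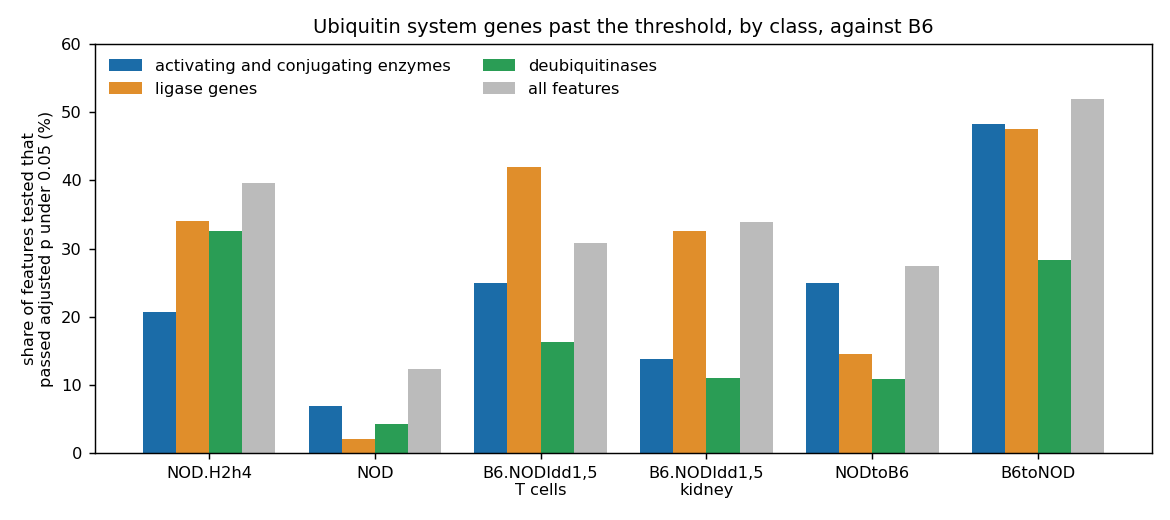
Share of features past adjusted p 0.05 (limma) in each of the 6 comparisons with B6, in percent, after median centring, for 3 classes of ubiquitin genes (colours) and for all features (grey). Deubiquitinases lie below all features in each group, at 32.6% against 39.7% in NOD.H2h4 T cells and 28.3% against 51.9% in B6toNOD T cells, and ligase genes lie above all features in B6.NODIdd1,5 T cells alone, at 41.9% against 30.9%.

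After centring, the share of members past the threshold lay below that of all features in each group, and no test of that gap was made. Without centring 95 of 122 members passed in NOD.H2h4 T cells, beside 63.9% of all features. In B6.NODIdd1,5 T cells 34 of 114 then passed, beside 26.4%, and in kidney 47 of 120, beside 33%, so these shares lay above. With arrays scaled to one spread 41 of 114 passed in B6.NODIdd1,5 T cells, beside 33.7%. Over the genes with 1 symbol the share past the threshold after centring was 34.2% in NOD.H2h4, 7.98% in NOD, 29.5% in B6.NODIdd1,5, 25.9% in NODtoB6 and 48.4% in B6toNOD T cells, and 26.5% in kidney. In NOD.H2h4 T cells 13 were higher and 24 lower than B6 of 122 tested, or 30.3%, beside 39.7% of all features (24.2% higher and 15.5% lower). NOD T cells, of the diabetic parent strain, had 5 higher and 0 lower of 124, or 4.03%, beside 12.4% of all features (9.85% higher and 2.52% lower). At an unadjusted p under 0.05 limma gave 16 of the 124 members there, beside 3858 of 15931 features. In B6.NODIdd1,5 T cells 15 were higher and 17 lower of 114 (28.1%, beside 30.9% of all features, 14.9% higher and 16.1% lower), and in B6.NODIdd1,5 kidney 12 were higher and 12 lower of 120 (20%, beside 33.9% of all features, 22.6% higher and 11.3% lower). In NODtoB6 T cells 9 were higher and 10 lower of 122 (15.6%, beside 27.4% of all features, 14.1% higher and 13.4% lower), and in B6toNOD T cells 21 were higher and 25 lower of 115 (40%, beside 51.9% of all features, 28.7% higher and 23.2% lower). The median member was at -0.33 in NOD.H2h4 T cells, where the median of all genes with 1 symbol was -0.14, and at -0.02 to -0.16 in the other groups.

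The split of calls between higher and lower, and the share called, rest on the centring. Without it NOD.H2h4 T cells had 1 member higher and 94 lower, B6.NODIdd1,5 T cells 7 and 27, B6.NODIdd1,5 kidney 2 and 45, NODtoB6 T cells 3 and 21, and B6toNOD T cells 4 and 64. In NOD T cells 1 was higher and 0 lower, beside 1.24% of all features. In the groups before it, in the order given, 63.9%, 26.4%, 33%, 23.5% and 66.6% of all features passed without centring. With the arrays scaled to one spread, NOD T cells had 12 higher and 12 lower, beside 31.3% of all features. Leaving out 1 array in turn gave 18 to 51 calls in NOD.H2h4 T cells, 1 to 7 in NOD T cells, 21 to 41 in B6.NODIdd1,5 T cells, 13 to 36 in B6.NODIdd1,5 kidney, 12 to 30 in NODtoB6 T cells and 38 to 51 in B6toNOD T cells.

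By class, ligase genes had 7 higher and 11 lower of 43 in B6.NODIdd1,5 T cells (41.9%, beside 30.9% of all features) and 7 higher and 8 lower of 46 in kidney (32.6%, beside 33.9%). Deubiquitinases had 3 higher and 4 lower of 43 (16.3%) and 2 higher and 3 lower of 45 (11.1%) in those groups. In B6toNOD T cells activating and conjugating enzymes had 9 higher and 5 lower of 29 (48.3%), ligase genes 7 higher and 12 lower of 40 (47.5%) and deubiquitinases 5 higher and 8 lower of 46 (28.3%), beside 51.9% of all features. In NOD.H2h4 T cells deubiquitinases had 4 higher and 11 lower of 46 (32.6%) and F-box genes 5 higher and 9 lower of 37 (37.8%), beside 39.7% of all features, and without centring 94 of the 95 members called there were lower. The differences between classes were not tested.

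Few members passed in most groups, and the same count over all features was not made. Members without a value on every array were not tested in all 6 comparisons, and an untested comparison counts here as not passed. Of the 125 members 40 passed in none of the 6 comparisons, 42 in 1, 23 in 2, 12 in 3, 4 in 4, 1 in 5 and 3 in all 6. The 3 were Ube2c, Ube2e3 and Fbxl5, and each of them was higher in some groups and lower in others. Usp42 was lower in 5 and Fbxo28 in 4, whereas Fbxw7 was higher in 4, Fbxo17 higher in 3 and lower in 1, and Fbxl22 higher in 1 and lower in 3. Over the 104 members with a full row, the range between the highest and lowest group mean had a median of 1.23, from 0.26 to 3.99, with 4 under 0.5 and 16 over 2. The test of equal means over the 6 groups passed for 59 of these 104, or 56.7%, beside 64.1% of all features.

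**Figure D2:**
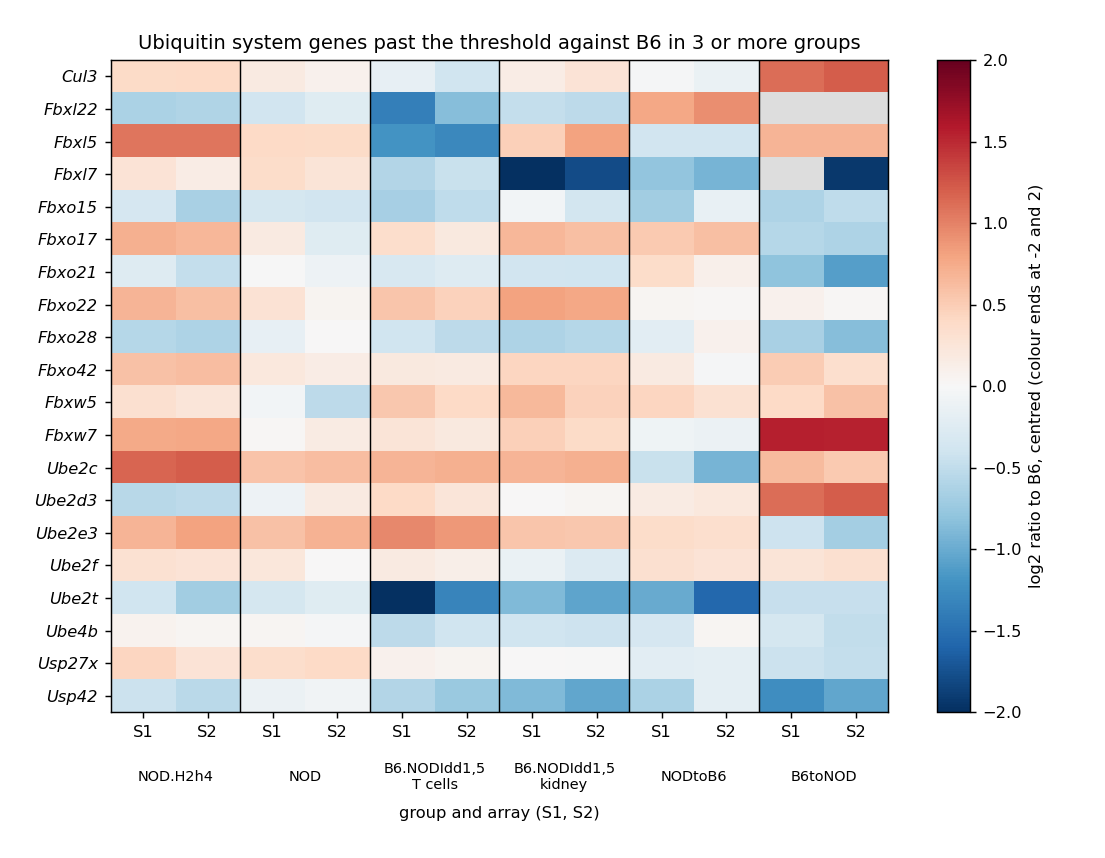
Log2 ratio to B6 on each of the 12 arrays (columns, 2 per group) for the 20 ubiquitin genes past adjusted p 0.05 in at least 3 groups (rows), after median centring. Usp42 is below 0 on all 12 arrays and Fbxo28 on 10 of them. Ube2c is above 0 on every array but those of NODtoB6, although without centring its B6toNOD mean was -0.18.

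Of the E1 genes, 1 passed in 1 group. Uba3, the catalytic E1 subunit for NEDD8, passed in no group, with means between -0.88 in NOD T cells and 0.30 in NODtoB6 T cells. Uba6, an alternative E1 for ubiquitin, was at -0.61 and -2.36 in B6toNOD T cells (-1.48 ± 0.352, adjusted p = 0.00978). That call was lost without the second array (-0.61, adjusted p = 0.0553). Its means in the other groups lay between -0.86 and -0.11, and none of them passed.

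Ube2c was higher than B6 in 5 groups and lower in NODtoB6 T cells. Its values were 1.17 and 1.21 in NOD.H2h4 T cells, 0.56 and 0.62 in NOD T cells, 0.69 and 0.71 in B6.NODIdd1,5 T cells, 0.67 and 0.71 in B6.NODIdd1,5 kidney, -0.44 and -0.94 in NODtoB6 T cells and 0.63 and 0.53 in B6toNOD T cells. The arrays of every group had the same sign, and NODtoB6 alone was negative. The fit gave 1.19 ± 0.11, adjusted p = 0.00017 in NOD.H2h4 T cells, 0.70 ± 0.108, adjusted p = 0.00272 in B6.NODIdd1,5 T cells, 0.69 ± 0.109, adjusted p = 0.00262 in B6.NODIdd1,5 kidney, -0.69 ± 0.109, adjusted p = 0.00447 in NODtoB6 and 0.58 ± 0.108, adjusted p = 0.00324 in B6toNOD. In NOD T cells it was 0.59 ± 0.11, adjusted p = 0.0151, and the call was lost as deposited (0.44, adjusted p = 0.175) and without either NOD array (0.62, adjusted p = 0.089 and 0.56, adjusted p = 0.174). As deposited, with no centring, the NOD.H2h4 value was 0.39, adjusted p = 0.0374, the kidney value 0.23, adjusted p = 0.222, and the B6toNOD value changed sign (-0.18, adjusted p = 0.257). Without the second NODtoB6 array its value there was -0.44, adjusted p = 0.0211.

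Ube2t was negative in every group mean. Its values were -0.40 and -0.70 in NOD.H2h4 T cells, -0.35 and -0.24 in NOD T cells, -2.06 and -1.32 in B6.NODIdd1,5 T cells, -0.88 and -1.06 in B6.NODIdd1,5 kidney, -1.01 and -1.57 in NODtoB6 T cells and -0.46 and -0.45 in B6toNOD T cells. It passed in B6.NODIdd1,5 T cells (-1.69 ± 0.19, adjusted p = 0.000632), B6.NODIdd1,5 kidney (-0.97 ± 0.191, adjusted p = 0.00674) and NODtoB6 T cells (-1.29 ± 0.191, adjusted p = 0.00353). In NOD.H2h4, NOD and B6toNOD T cells the means of -0.55, -0.30 and -0.45 did not pass. The kidney call was lost without either kidney array (-1.06, adjusted p = 0.0552 and -0.88, adjusted p = 0.089). Ube2s, which lengthens ubiquitin chains for the APC/C, was lower in NODtoB6 T cells (-0.28 ± 0.0828, adjusted p = 0.0406) and higher in B6toNOD T cells (0.66 ± 0.0815, adjusted p = 0.000395). The latter is smaller in size than the median of -0.76 removed there by centring, so its sign rests on the centring. Ube2s was not followed through the other alternatives.

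Ube2e3, an E2 of the UBE2D/E family, was higher in 5 groups and lower in B6toNOD T cells. Its values were 0.68 and 0.81 in NOD.H2h4 T cells, 0.59 and 0.69 in NOD T cells, 0.95 and 0.86 in B6.NODIdd1,5 T cells, 0.55 and 0.54 in B6.NODIdd1,5 kidney, 0.37 and 0.34 in NODtoB6 T cells and -0.42 and -0.68 in B6toNOD T cells. Only the B6toNOD arrays were negative. The value in B6.NODIdd1,5 T cells (0.91 ± 0.0808, adjusted p = 0.000227) kept its call and size under every alternative tried. In NOD T cells (0.64 ± 0.0828, adjusted p = 0.00489) the call was lost as deposited (0.49, adjusted p = 0.151) and without the second NOD array (0.59, adjusted p = 0.0863). In NOD.H2h4 T cells (0.74 ± 0.0825, adjusted p = 0.00037) the sign turned as deposited (-0.058, adjusted p = 0.723). NODtoB6 T cells were at 0.36 ± 0.082, adjusted p = 0.0182, which was lost as deposited (0.12, adjusted p = 0.572) and without either of their arrays (0.34, adjusted p = 0.0979 and 0.37, adjusted p = 0.0898). B6.NODIdd1,5 kidney was at 0.55 ± 0.0822, adjusted p = 0.00213, lost as deposited (0.087, adjusted p = 0.658), and B6toNOD T cells at -0.55 ± 0.0808, adjusted p = 0.000964.

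In B6toNOD T cells 9 higher and 4 lower of 27 E2 genes passed, or 48.1%, beside 51.9% of all features. Ube2o, an E2 that also acts as a ligase and clears proteins from maturing red cells, was at -3.42 and -2.14 there (-2.78 ± 0.254, adjusted p = 8.51e-05). In the other groups it was -0.14 and -0.087 in NOD.H2h4, 0.77 and 0.62 in NOD and -0.12 and 0.28 in B6.NODIdd1,5 T cells, -0.58 and -0.49 in kidney and 0.81 and 0.68 in NODtoB6 T cells. Both B6toNOD arrays lay below all others. Of the erythroid markers tested in the same T cells 3 were higher and 1 lower of 6 (median 0.14), and their part in this value was not tested.

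Ube2l3, the E2 of HECT and RBR ligases, was at 1.40 and 1.55 in B6toNOD T cells (1.47 ± 0.152, adjusted p = 0.000153) and at -1.19 and -0.47 in B6.NODIdd1,5 T cells (-0.83 ± 0.152, adjusted p = 0.00552). Its 4 probes ran from 0.0086 to 2.78 in B6toNOD, the value was 0.71 as deposited, and without the first B6.NODIdd1,5 T cell array the congenic value was -0.47. Ube2d3, an E2 used by many RING ligases, was at 1.12 and 1.22 in B6toNOD T cells (1.17 ± 0.0834, adjusted p = 2.7e-05) and -0.55 and -0.52 in NOD.H2h4 T cells (-0.54 ± 0.0851, adjusted p = 0.00196). As deposited the first became 0.41, and over probes with a value on all 12 arrays the second became -0.22, with probes from -1.79 to 0.32. Ube2v2, the partner of Ube2n in making K63 chains, was at 0.84 and 0.76 in B6toNOD T cells (0.80 ± 0.105, adjusted p = 0.000538). As deposited this became 0.037, adjusted p = 0.851. Ube2j1, an E2 of endoplasmic reticulum degradation, was at -0.76 and -1.88 there (-1.32 ± 0.218, adjusted p = 0.00176), and at -0.76 without the second array. With the arrays scaled to one spread the B6toNOD values of Ube2o, Ube2l3, Ube2d3, Ube2v2 and Ube2j1 shrank to -1.75, 0.93, 0.74, 0.50 and -0.83, and all 5 kept their calls. Ube2ql1 was at 2.03 and 2.82 in B6.NODIdd1,5 T cells (2.43 ± 0.59, adjusted p = 0.0229) and lost its call without either array (2.82, adjusted p = 0.0761 and 2.03, adjusted p = 0.166).

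Ube3b, a HECT ligase, was low in both tissues of the congenic strain. Its values were -0.014 and 0.13 in NOD.H2h4 T cells, 0.28 and 0.31 in NOD T cells, -1.20 and -2.07 in B6.NODIdd1,5 T cells, -2.21 and -2.28 in B6.NODIdd1,5 kidney, 0.60 and -0.23 in NODtoB6 T cells and -0.47 and -0.56 in B6toNOD T cells. The 4 B6.NODIdd1,5 arrays lay below the other 8. The fit gave -1.63 ± 0.23, adjusted p = 0.0017 in T cells and -2.24 ± 0.23, adjusted p = 0.000478 in B6.NODIdd1,5 kidney, and both kept call and size under every alternative tried. Its 2 probes ran from -1.94 to -1.33 in T cells and from -3.51 to -0.98 in kidney. Ube4b, a U-box enzyme that extends ubiquitin chains, was lower by less in the same tissues, at -0.52 and -0.40 in T cells (-0.46 ± 0.0959, adjusted p = 0.00962) and -0.40 and -0.41 in kidney (-0.41 ± 0.097, adjusted p = 0.0148), and in B6toNOD T cells (-0.43 ± 0.0958, adjusted p = 0.00773). Those calls were lost without the first T cell array (-0.40, adjusted p = 0.0937), either kidney array (-0.41, adjusted p = 0.123 and -0.40, adjusted p = 0.126) and the second B6toNOD array (-0.35, adjusted p = 0.07). The B6toNOD call was also lost with scaled arrays (-0.27, adjusted p = 0.0877) and over probes with a value on all 12 arrays (-0.037, adjusted p = 0.712), the T cell call over those probes (-0.20, adjusted p = 0.0924) and the kidney call with the median of the probes (-0.26, adjusted p = 0.0998). Its 4 probes differed in sign, from -1.21 to 0.56 in B6.NODIdd1,5 T cells and from -1.78 to 0.88 in B6toNOD T cells. Ube3a, the HECT ligase also known as E6-AP, was at 0.79 and 0.73 in B6toNOD T cells (0.76 ± 0.196, adjusted p = 0.014). This value was -0.0015 as deposited, and its call was lost with scaled arrays (0.48, adjusted p = 0.0948) and without either array (0.73, adjusted p = 0.0842 and 0.79, adjusted p = 0.0684). Ube3c, another HECT ligase, passed in no group.

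Of the 6 cullins, Cul3 passed in the most groups. Cul3, which works through BTB adaptors such as Keap1, had values of 0.38 and 0.40 in NOD.H2h4 T cells, 0.18 and 0.089 in NOD T cells, -0.16 and -0.40 in B6.NODIdd1,5 T cells, 0.15 and 0.28 in B6.NODIdd1,5 kidney, -0.019 and -0.13 in NODtoB6 T cells and 1.12 and 1.22 in B6toNOD T cells. B6toNOD T cells stood above the rest (1.17 ± 0.0809, adjusted p = 2.39e-05, and 0.41 as deposited). In B6.NODIdd1,5 T cells it was lower (-0.28 ± 0.0809, adjusted p = 0.034), which was lost without the second array there (-0.16, adjusted p = 0.325) and without either NOD.H2h4 or either kidney array, and with the running median (-0.18, adjusted p = 0.163). Its 2 probes had opposite signs on these arrays, at -0.76 and -1.03 and at 0.43 and 0.23. In NOD.H2h4 T cells (0.39 ± 0.0826, adjusted p = 0.00783) its sign turned as deposited (-0.41, adjusted p = 0.0194), and the call was lost without either array (0.40, adjusted p = 0.0711 and 0.38, adjusted p = 0.0793). Cul2, the scaffold of the VHL ligase, was lowest in B6toNOD T cells, at -1.05 and -2.0 (-1.53 ± 0.266, adjusted p = 0.00225), and was negative on 11 of 12 arrays. Cul1, the scaffold of the F-box ligases, was lower in B6.NODIdd1,5 T cells (-0.45 ± 0.0838, adjusted p = 0.00617) and kidney (-0.33 ± 0.0852, adjusted p = 0.0217). Those calls were lost without the first T cell array (-0.37, adjusted p = 0.0724) and without either kidney array (-0.39, adjusted p = 0.0959 and -0.26, adjusted p = 0.229). Of its 4 probes, 2 were above 0 on both congenic T cell arrays, at 0.094 and 0.05 and at 0.29 and 0.28, and 1 was above 0 on both kidney arrays, at 0.49 and 0.31. Cul5 passed in no group.

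Among F-box genes, Fbxl5 changed in all 6 groups and in both directions. Fbxl5 binds iron and marks IRP2, the regulator of iron uptake, for degradation. Its values were 1.06 and 1.08 in NOD.H2h4 T cells, 0.41 and 0.39 in NOD T cells, -1.19 and -1.29 in B6.NODIdd1,5 T cells, 0.48 and 0.80 in B6.NODIdd1,5 kidney, -0.38 and -0.38 in NODtoB6 T cells and 0.68 and 0.68 in B6toNOD T cells. B6.NODIdd1,5 T cells (-1.24 ± 0.0825, adjusted p = 6.29e-05) and kidney (0.64 ± 0.0839, adjusted p = 0.00121) of the same strain lay on opposite sides of 0. NOD.H2h4 T cells were highest (1.07 ± 0.0841, adjusted p = 9.71e-05), followed by B6toNOD T cells (0.68 ± 0.0825, adjusted p = 0.000348), whose value was -0.077 as deposited. The NOD (0.40 ± 0.0845, adjusted p = 0.0238) and NODtoB6 (-0.38 ± 0.0837, adjusted p = 0.0153) calls were lost without either array of their group, with adjusted p = 0.146 and 0.196 in NOD and 0.0784 and 0.0888 in NODtoB6. The NOD call was also lost as deposited (0.25, adjusted p = 0.382) and the NODtoB6 call with a running median along the probe order subtracted (-0.27, adjusted p = 0.0555). As deposited, the NOD.H2h4 value was 0.27, adjusted p = 0.0925 and the kidney value 0.19, adjusted p = 0.28.

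Fbxw7, the receptor for cyclin E, Myc and Notch, was highest in B6toNOD T cells. Its values were 0.75 and 0.77 in NOD.H2h4 T cells, 0.022 and 0.17 in NOD T cells, 0.26 and 0.20 in B6.NODIdd1,5 T cells, 0.48 and 0.38 in B6.NODIdd1,5 kidney, -0.09 and -0.12 in NODtoB6 T cells and 1.55 and 1.54 in B6toNOD T cells. Both B6toNOD arrays lay above all others, and both NODtoB6 arrays were below 0. The fit gave 1.54 ± 0.0652, adjusted p = 4.14e-06 in B6toNOD and 0.76 ± 0.0673, adjusted p = 0.000145 in NOD.H2h4 T cells. As deposited the first was 0.78, adjusted p = 0.000685 and the second -0.041, adjusted p = 0.761, and the kidney value (0.43 ± 0.067, adjusted p = 0.00245) also turned sign (-0.029). In B6.NODIdd1,5 T cells (0.23 ± 0.0653, adjusted p = 0.0335) the call was lost as deposited (0.051, adjusted p = 0.794), without either of their arrays (0.20, adjusted p = 0.213 and 0.26, adjusted p = 0.109) and without either NOD.H2h4 or kidney array, and the kidney call without the first kidney array (0.38, adjusted p = 0.0557).

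**Figure D3:**
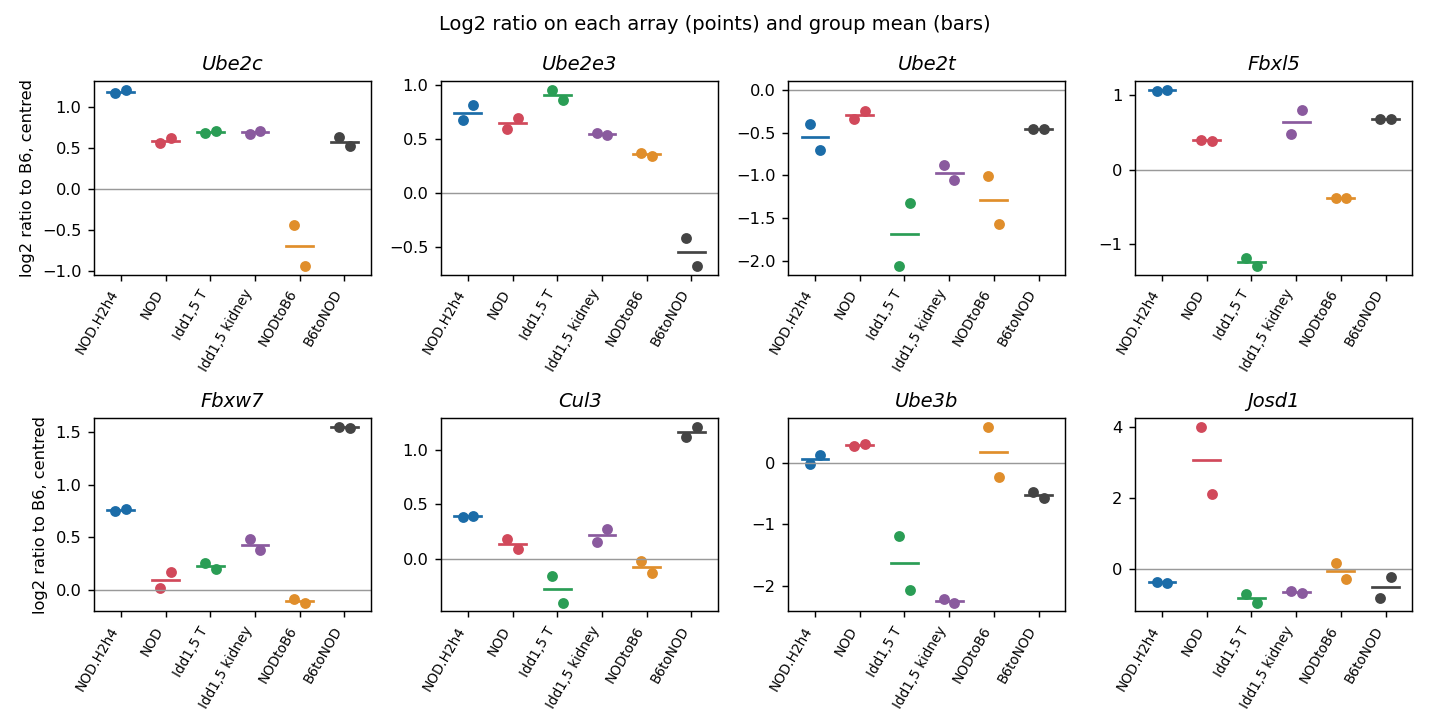
Log2 ratio to B6 on each array (points, 2 per group) with the group mean (bar) for Ube2c, Ube2e3, Ube2t, Fbxl5, Fbxw7, Cul3, Ube3b and Josd1, after median centring. Ube3b is low in both B6.NODIdd1,5 tissues, Fbxl5 differs in sign between them, and Josd1 is above 2 on both NOD arrays; without centring, means that are above 0 here fall below it for Cul3 (-0.41), Fbxw7 (-0.041) and Ube2e3 (-0.058) in NOD.H2h4, Fbxw7 (-0.029) in B6.NODIdd1,5 kidney and Ube2c (-0.18) and Fbxl5 (-0.077) in B6toNOD.

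Further F-box genes changed in 1 or a few groups. Fbxl7, an F-box receptor that targets aurora A kinase, was at -2.14 and -1.79 in B6.NODIdd1,5 kidney (-1.97 ± 0.105, adjusted p = 0.000216), -0.59 and -0.45 in B6.NODIdd1,5 T cells (-0.52 ± 0.104, adjusted p = 0.0113) and -0.79 and -0.94 in NODtoB6 T cells (-0.86 ± 0.105, adjusted p = 0.0026). NOD.H2h4 and NOD T cells were above 0, at 0.28 and 0.15 and 0.36 and 0.26, without passing, and B6toNOD T cells had a value of -1.93 on 1 array and were not tested. Fbxl22 was lower in B6.NODIdd1,5 T cells (-1.12 ± 0.125, adjusted p = 0.00112), NOD.H2h4 T cells (-0.62 ± 0.127, adjusted p = 0.00904) and kidney (-0.50 ± 0.127, adjusted p = 0.0239) and higher in NODtoB6 T cells (0.86 ± 0.126, adjusted p = 0.00504). The congenic T cell value alone kept its call without each array. The others were lost without an array of their group, with -0.61 and -0.63 in NOD.H2h4, -0.53 and -0.47 in kidney and 0.78 without the second NODtoB6 array. Fbxo28 was lower in NOD.H2h4 (-0.60 ± 0.0975, adjusted p = 0.00227), B6.NODIdd1,5 (-0.46 ± 0.0961, adjusted p = 0.0103) and B6toNOD T cells (-0.75 ± 0.0961, adjusted p = 0.000468) and in kidney (-0.59 ± 0.0973, adjusted p = 0.00311). Without the second congenic T cell array its value there was -0.39, adjusted p = 0.0965, and without the first kidney array -0.56, adjusted p = 0.0523. Its mean in congenic T cells lies between 2 probes of opposite sign, at 0.55 and 2.50 and at -1.34 and -3.54.

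Fbxo22, which in human cells marks a histone demethylase for degradation, was above 0 on all 12 arrays. It was highest in B6.NODIdd1,5 kidney, at 0.81 and 0.77 (0.79 ± 0.0759, adjusted p = 0.000381), and in NOD.H2h4 T cells, at 0.68 and 0.60 (0.64 ± 0.0763, adjusted p = 0.000509), although as deposited these were 0.33 and -0.16. Fbxo15, a gene of pluripotent cells, was below 0 on all 12 arrays, as were Fbxw27, Ube2t, Usp37 and Usp42. Fbxo15 was picked out here after its values were seen. Fbxl18 was at -1.70 and -4.39 in B6toNOD T cells (-3.04 ± 0.607, adjusted p = 0.00441) and -1.70 without the second array.

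Some of the largest F-box ratios differed in size between arrays or between probes. Fbxo6, a receptor for glycoproteins, was at 1.68 and 5.59 in B6.NODIdd1,5 T cells (3.64 ± 0.782, adjusted p = 0.0145), Fbxw22 at 1.43 and 4.95 (3.19 ± 0.717, adjusted p = 0.0173) and Fbxo11 at -0.99 and -3.66 (-2.32 ± 0.524, adjusted p = 0.0136). Both arrays agreed in sign for each gene, and the second array was the more extreme. Without it the 3 values were 1.68, 1.43 and -0.99, and without the first array 5.59, 4.95 and -3.66. For Fbxo11 a probe at -6.50 had a value on the second array only, and the probe measured on both was at -0.99 and -0.81. Over probes with a value on all 12 arrays Fbxo11 was -0.89, adjusted p = 0.0041.

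Usp42 was lower in 5 groups. In human cells this protease removes ubiquitin from p53. Its values were -0.42 and -0.54 in NOD.H2h4 T cells, -0.12 and -0.065 in NOD T cells, -0.59 and -0.75 in B6.NODIdd1,5 T cells, -0.89 and -1.03 in B6.NODIdd1,5 kidney, -0.63 and -0.20 in NODtoB6 T cells and -1.25 and -1.04 in B6toNOD T cells. It was lowest in B6toNOD T cells (-1.14 ± 0.113, adjusted p = 0.00013) and B6.NODIdd1,5 kidney (-0.96 ± 0.114, adjusted p = 0.000859), and passed also in B6.NODIdd1,5 T cells (-0.67 ± 0.113, adjusted p = 0.00402), NOD.H2h4 T cells (-0.48 ± 0.115, adjusted p = 0.0133) and NODtoB6 T cells (-0.41 ± 0.114, adjusted p = 0.0333). Its 4 probes did not all have a value on every array, and ran from -1.66 to -0.41 in B6toNOD and from -2.14 to -0.44 in kidney. With the median of the probes in place of the mean, B6toNOD was -0.47, adjusted p = 0.0476 and kidney -0.63, adjusted p = 0.0238. The NOD.H2h4 call was lost without either NOD.H2h4 array (-0.54, adjusted p = 0.0725 and -0.42, adjusted p = 0.138) and with that median (-0.43, adjusted p = 0.0815), with scaled arrays (-0.39, adjusted p = 0.0515) and over probes with a value on all 12 arrays (-0.56, adjusted p = 0.195). The NODtoB6 call was lost without several arrays, with the median (-0.42, adjusted p = 0.104), with the running median (-0.36, adjusted p = 0.0995) and over those probes (-0.72, adjusted p = 0.121), as was the B6.NODIdd1,5 T cell call (-0.53, adjusted p = 0.229).

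Other ubiquitin-specific proteases changed in 1 to 3 groups. Usp10, which in human cells stabilises p53, was at -0.83 and -1.04 in B6.NODIdd1,5 T cells (-0.93 ± 0.124, adjusted p = 0.0013) and 0.16 and 0.16 in B6.NODIdd1,5 kidney, where it did not pass. It was also lower in NOD.H2h4 T cells, with a mean of -0.56. Usp40 was at -4.03 and -1.98 in B6toNOD T cells (-3.01 ± 0.507, adjusted p = 0.00191), and at -1.98 without the first array. Of its 3 probes 1 had a value on the first array only. Usp1, which acts on FANCD2 and PCNA, was at 1.01 and 1.03 in B6toNOD T cells (1.02 ± 0.143, adjusted p = 0.000736). As deposited this was 0.26, adjusted p = 0.142. In NOD.H2h4 T cells Usp1 was lower, at -0.49 and -0.61. Usp25 was higher in B6toNOD (0.76 ± 0.0691, adjusted p = 8.15e-05) and NOD.H2h4 T cells (0.45 ± 0.0711, adjusted p = 0.00193), but as deposited its values were 0.003 and -0.35. Usp27x was higher in NOD (0.38 ± 0.0649, adjusted p = 0.0116) and NOD.H2h4 T cells (0.35 ± 0.0645, adjusted p = 0.00407) and lower in B6toNOD T cells (-0.46 ± 0.0623, adjusted p = 0.000653). As deposited NOD was 0.22 and NOD.H2h4 -0.45. The NOD call was lost without either NOD array (0.40 and 0.35) and the NOD.H2h4 call without the first NOD.H2h4 array (0.28).

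Some protease calls turned on 1 array or 1 probe. Usp5, which recycles free ubiquitin chains, was at 4.45 and 0.96 in B6.NODIdd1,5 kidney (2.70 ± 0.714, adjusted p = 0.0228) and did not pass without the first array (0.96, adjusted p = 0.244). Its 2 probes were measured together on the second array only, and the shared probe was at 4.45 and 1.48. Usp15 was at -1.33 and -1.57 there (-1.45 ± 0.222, adjusted p = 0.00228), and became 0.42, adjusted p = 0.686 where a ratio of 100000 was kept as a value. Usp16, a histone H2A protease, at 1.17 and 0.80 (0.98 ± 0.247, adjusted p = 0.0206), and Usp21 at 1.03 and 0.89 (0.96 ± 0.181, adjusted p = 0.00624) were higher in B6.NODIdd1,5 T cells. Over probes with a value on all 12 arrays they were at -0.25 and -0.34, neither past the threshold. Usp16 was also lost as deposited (0.81, adjusted p = 0.0716) and without either congenic T cell array (0.80 and 1.17), and Usp21 without the first (0.89).

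Of the UCH hydrolases, Uchl1, abundant in neurons, was at -0.85 and -1.49 in NODtoB6 T cells (-1.17 ± 0.136, adjusted p = 0.00135) and passed in no other group. Uchl5, which trims chains at the proteasome, was at -1.54 and -1.63 in NOD.H2h4 T cells (-1.59 ± 0.394, adjusted p = 0.0153), lost without either array (-1.63, adjusted p = 0.103 and -1.54, adjusted p = 0.119). Its values in B6.NODIdd1,5 T cells and kidney were 1.59 and 0.28 and 1.43 and 0.072, not past the threshold. Uchl3 passed in no group.

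OTU proteases gave few calls. Otud1 was at -1.37 and -2.52 in NODtoB6 T cells (-1.94 ± 0.576, adjusted p = 0.0427), a call lost without either NODtoB6 array (-2.52, adjusted p = 0.0813 and -1.37, adjusted p = 0.326). Otud4 was at 1.27 and 0.60 in B6.NODIdd1,5 T cells (0.94 ± 0.201, adjusted p = 0.0112), lost without the first array (0.60, adjusted p = 0.134), with 4 probes from -0.61 to 2.61. Otub2, Otud5 and Otud7b passed in no group.

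Josd1, a Josephin protease found at the plasma membrane, held the largest ratio of any member in NOD T cells. Its values were -0.35 and -0.39 in NOD.H2h4 T cells, 4.01 and 2.10 in NOD T cells, -0.69 and -0.95 in B6.NODIdd1,5 T cells, -0.61 and -0.67 in B6.NODIdd1,5 kidney, 0.16 and -0.29 in NODtoB6 T cells and -0.81 and -0.23 in B6toNOD T cells. Both NOD arrays lay above 2, and no other group mean was above 0. The NOD value was 3.05 ± 0.383, adjusted p = 0.00443, and of the 5 NOD calls it alone kept its call as deposited and without each array. It rests on 1 probe. Josd2, its closest relative, had group means between -0.26 and 0.0043 apart from B6toNOD T cells (-0.38 ± 0.13, adjusted p = 0.0433), where the call was lost with the replicate block (-0.38, adjusted p = 0.058), with scaled arrays (-0.23, adjusted p = 0.172) and without several arrays.

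Probes of one gene often differed, and 64 members had more than 1. Of the called genes with several probes, all probes had one sign for 11 of 21 in NOD.H2h4 T cells, 7 of 17 in B6.NODIdd1,5 T cells, 9 of 11 in B6.NODIdd1,5 kidney, 6 of 8 in NODtoB6 and 16 of 23 in B6toNOD T cells. All 5 genes called in NOD T cells had 1 probe. Ube2n, the E2 that builds K63 chains in receptor signalling, was at -1.02 and -1.82 in NOD.H2h4 T cells (-1.42 ± 0.308, adjusted p = 0.00865), with 3 probes from -4.07 to 0.033. The median of the probes gave -0.23, adjusted p = 0.294, the probes with a value on all 12 arrays gave -0.068, adjusted p = 0.655, and without the second array the mean gave -1.02, adjusted p = 0.131. Otud6b was at -1.65 and -1.23 (-1.44 ± 0.226, adjusted p = 0.00191) with probes from -4.09 to 0.034 and a median of -0.27, adjusted p = 0.0929, and over the probes with a value on all 12 arrays it was -0.22, adjusted p = 0.108. Usp9x, an X-linked protease of endocytic and signalling proteins, was at -1.06 and -0.90 (-0.98 ± 0.197, adjusted p = 0.00625) with 5 probes from -2.50 to 0.60, and at -0.90, adjusted p = 0.0769 without the first array. Ube2d2a, close in sequence to Ube2d3, was at 1.73 and 1.0 in NODtoB6 T cells (1.36 ± 0.196, adjusted p = 0.00318), with probes from 0.013 to 3.90 and a median of 0.17, adjusted p = 0.383. Probes of close relatives can bind each other's RNA, which was not tested.

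**Figure D4:**
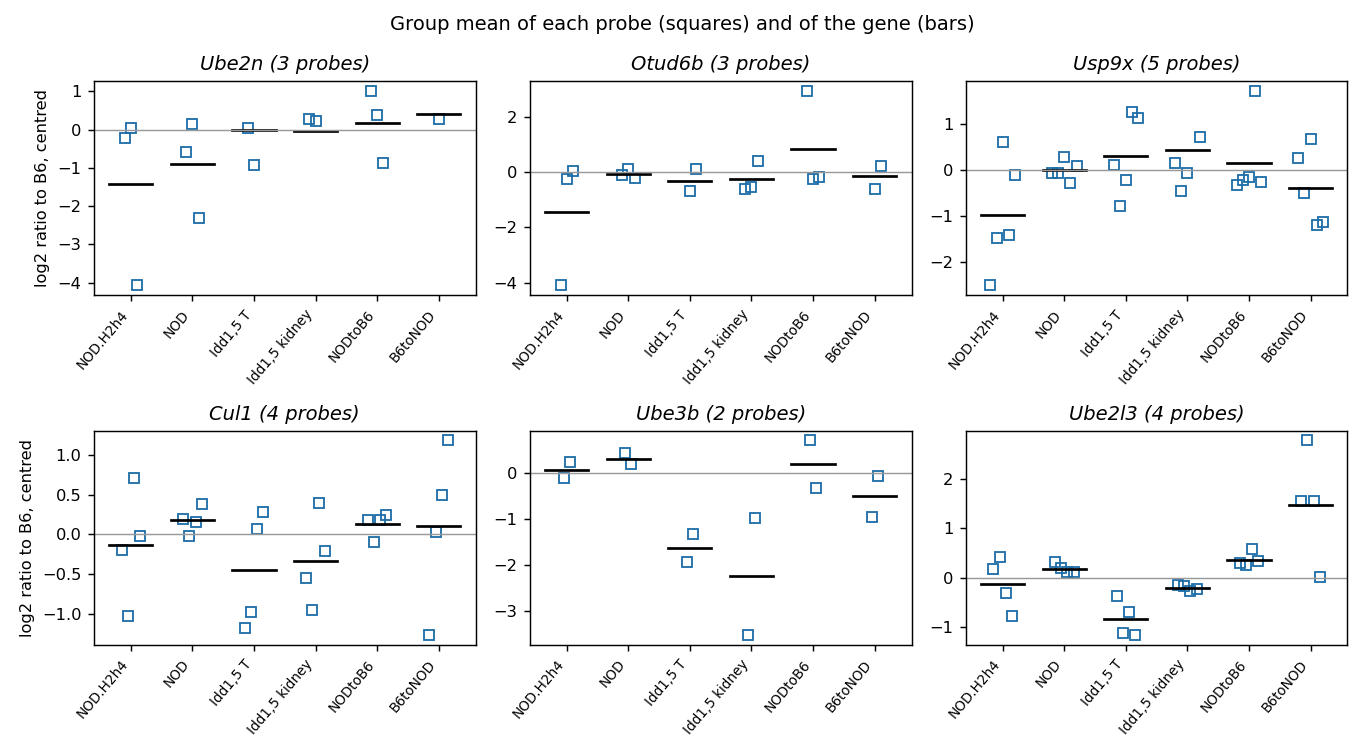
Mean log2 ratio to B6 of each probe (squares, probes with a value on both arrays of a group) and of the gene (bar) in the 6 groups for Ube2n, Otud6b, Usp9x, Cul1, Ube3b and Ube2l3. In NOD.H2h4 T cells the low means of Ube2n, Otud6b and Usp9x sit between probes that lie far apart, from -2.50 to 0.60 for Usp9x.

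NOD.H2h4 was set against NOD to ask what differs between MHC haplotypes on one background. Of 122 members 7 were higher and 9 lower, or 13.1%, beside 18.7% of all features (12.2% higher and 6.45% lower). Josd1 differed most (-3.43 ± 0.541, adjusted p = 0.00703), from its high NOD value. Fbxw7 was higher in NOD.H2h4 (0.66 ± 0.095, adjusted p = 0.00492) and kept this without each array, but as deposited the difference was 0.015. With no centring 0 members were higher and 40 lower, and with scaled arrays 1 was higher and 6 lower. Of all features 28.4% and 13.2% passed in those settings. The differences of Fbxl5 (0.67 ± 0.119, adjusted p = 0.0101), Fbxo17 (0.71 ± 0.146, adjusted p = 0.0157) and Usp29 (0.71 ± 0.152, adjusted p = 0.0181) were lost as deposited, at 0.023, 0.063 and 0.061, and with scaled arrays, at 0.18, 0.57 and 0.54. They were also lost without either NOD.H2h4 array and without the second NOD array (0.66, 0.50 and 0.56). Leaving out 1 array in turn gave 2 to 22 calls.

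T cells and kidney of B6.NODIdd1,5 mice, each against its own B6 tissue, differed for 8 members higher in T cells and 6 lower of 114, or 12.3%, beside 21.9% of all features (7.17% higher and 14.8% lower). Fbxl5 was lower in T cells (-1.88 ± 0.116, adjusted p = 0.000104), as was Usp10 (-1.09 ± 0.175, adjusted p = 0.00425), and Fbxl7 was higher (1.45 ± 0.147, adjusted p = 0.00117). These 3 kept call and size under every alternative tried. Fbxo6 (4.26 ± 1.1, adjusted p = 0.0373) was lost without each of 8 arrays, among them either kidney array (4.20, adjusted p = 0.151 and 4.33, adjusted p = 0.141) and was 2.31 without the second T cell array. Fbxw4, higher in T cells (1.31 ± 0.255, adjusted p = 0.01), was also lost without either kidney array (1.30, adjusted p = 0.0603 and 1.33, adjusted p = 0.0568). As deposited 8 were higher and 2 lower, beside 10.8% of all features.

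NODtoB6 was set against B6toNOD to ask how donor and host matter in marrow recipients. Of 112 members 14 were higher and 18 lower in NODtoB6 T cells, or 28.6%, beside 37% of all features (14.3% higher and 22.7% lower). Ube2o (3.52 ± 0.358, adjusted p = 0.000306) and Fbxo21 (1.19 ± 0.143, adjusted p = 0.000609) were higher. Fbxw7 (-1.65 ± 0.0912, adjusted p = 4.93e-05), Cul3 (-1.24 ± 0.113, adjusted p = 0.000195) and Ube2d3 (-0.98 ± 0.117, adjusted p = 0.00062) were lower. All 5 kept their calls as deposited, with scaled arrays and without each array. Fbxw7 shrank to -1.09 with scaled arrays, Cul3 to -0.71 as deposited and -0.81 scaled, and Ube2d3 to -0.45 and -0.53. With the NODtoB6 ratios turned, as an unknown dye order would allow, Ube2o was 2.04 and Fbxo21 0.72, both still past the threshold, and Usp40 (2.61 as assumed) was larger than Ube2o, at 3.40. Ube2c (-1.27 ± 0.152, adjusted p = 0.000621) changed sign when turned (0.11). In all, 26 were higher and 19 lower when turned, 32 and 7 as deposited, and 6 and 13 with scaled arrays. Of all features 52.6%, 36.7% and 24.4% passed in those settings. Myeloid markers differed in the same comparison, with 0 higher and 4 lower of 7 (median -1.0), and erythroid markers with 4 higher and 0 lower of 6 (median 0.95), and their part in these differences was not tested.

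Genes that work with these enzymes were counted from listed pathways. Those of NEDD8, which switches cullins on, and of the COP9 signalosome, which removes it, had 6 higher and 7 lower of 18 in NOD.H2h4 T cells and 9 higher and 4 lower of 18 in B6toNOD T cells, 72.2% in each, beside 39.7% and 51.9% of all features, and 0 higher and 0 lower of 18 in NOD T cells (2 at an unadjusted p under 0.05 by limma). The largest in NOD.H2h4 were Dcun1d3 (1.14 ± 0.251, adjusted p = 0.0122), a NEDD8 ligase helper, and Cops8 (-1.09 ± 0.222, adjusted p = 0.00642), a signalosome subunit. In B6toNOD T cells they were Cops4 (1.16 ± 0.0964, adjusted p = 5.24e-05) and again Cops8 (-1.07 ± 0.221, adjusted p = 0.00518). Cops8 was at -1.62 and -0.52 on the 2 B6toNOD arrays. In B6.NODIdd1,5 T cells 1 higher and 2 lower of 16 passed, in kidney 1 higher and 2 lower of 18 and in NODtoB6 T cells 1 higher and 2 lower of 18, beside 30.9%, 33.9% and 27.4% of all features. The members Uba3 and Ube2f are on this list. Its gaps from all features were not tested. The counts are after centring, which removed a median of -0.80 in NOD.H2h4 and -0.76 in B6toNOD T cells.

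Cell cycle ubiquitination genes, including the APC/C, had 1 higher and 6 lower of 24 in NODtoB6 T cells (29.2%, beside 27.4% of all features) and 5 higher and 6 lower of 23 in B6toNOD T cells (47.8%, beside 51.9%), shares near those of all features. In NODtoB6 the lower ones were Cdc27 (-1.41 ± 0.227, adjusted p = 0.00471), Anapc1 (-0.33 ± 0.0872, adjusted p = 0.0304), Btrc (-0.52 ± 0.142, adjusted p = 0.0328), Ube2c, Ube2t and Ube2s, and the higher one was Cdc16 (4.64 ± 0.253, adjusted p = 0.000112), a subunit of the same complex as Cdc27. The other groups had 3 higher and 4 lower of 24 in NOD.H2h4, 1 higher and 1 lower of 24 in NOD and 3 higher and 3 lower of 23 in B6.NODIdd1,5 T cells and 3 higher and 3 lower of 24 in kidney. These were 29.2%, 8.33%, 26.1% and 25%, beside 39.7%, 12.4%, 30.9% and 33.9% of all features. Several members are on this list, so it is no separate support for them.

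SUMO genes had 0 higher and 5 lower of 12 in B6.NODIdd1,5 T cells (41.7%, beside 30.9% of all features), led by Senp8 (-1.39 ± 0.195, adjusted p = 0.00473), a protease listed here by its name that acts on NEDD8, and Sae1 (-1.16 ± 0.157, adjusted p = 0.00144), a subunit of the SUMO E1. In kidney 1 was higher and 3 lower of 11 (36.4%, beside 33.9%), and in B6toNOD T cells 3 and 3 of 11 (54.5%, beside 51.9%). NODtoB6 T cells had 1 higher and 2 lower of 12 (25%, beside 27.4%) and NOD.H2h4 T cells 0 and 3 of 12 (25%, beside 39.7%). NOD T cells had 0 of 12, beside 12.4%. Ligases of other families had 2 higher and 8 lower of 49 in NOD.H2h4, 2 higher and 2 lower of 48 in NOD, 3 higher and 9 lower of 47 in B6.NODIdd1,5, 2 higher and 9 lower of 48 in NODtoB6 and 4 higher and 11 lower of 49 in B6toNOD T cells, and 3 higher and 7 lower of 49 in kidney. In that order the shares were 20.4%, 8.33%, 25.5%, 22.9%, 30.6% and 20.4%. Each lay below that of all features, at 39.7%, 12.4%, 30.9%, 27.4%, 51.9% and 33.9%. Syvn1, the main ligase of endoplasmic reticulum degradation, was the lowest of them in kidney (-1.36 ± 0.212, adjusted p = 0.00241) and NODtoB6 T cells (-1.64 ± 0.212, adjusted p = 0.00204), and Huwe1, a large HECT ligase, in B6.NODIdd1,5 T cells (-1.81 ± 0.148, adjusted p = 0.000155). Ubiquitin precursors and shuttles gave 0 to 3 calls of 10 in each group. Their share lay above that of all features in NODtoB6 T cells alone (30%, beside 27.4%). Genes of ISG15 and UFM1, ubiquitin-like modifiers, gave 0 to 2 of 3 or 4, above the share of all features in B6toNOD T cells alone (2 of 3, beside 51.9%).

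In the congenic strain the Idd5 interval lies on chromosome 1 and Idd1 on chromosome 17, and the sources used here do not give their bounds. Of 10 members on chromosome 1, B6.NODIdd1,5 T cells had 1 higher (Usp21) and 3 lower (Cul3, Fbxo28 and Ube2t), and kidney had 0 higher and 2 lower (Fbxo28 and Ube2t), beside 30.9% and 33.9% of all features called there. In T cells the probes of Usp21, Cul3 and Fbxo28 differed in sign. Of 3 on chromosome 17, Fbxo11 was lower in T cells, mostly through a probe with a value on 1 array. In kidney Cul7 (-0.058 ± 0.104, adjusted p = 0.715), Fbxl17 (-0.73 ± 0.421, adjusted p = 0.237) and Fbxo11 (-0.36 ± 0.525, adjusted p = 0.652) did not pass.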

How the data were processed

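RNA of 6 groups of mouse cells, 2 arrays each, was measured against B6 RNA on 2-colour cDNA arrays. What the authors deposited is, per the labels' dyes and the values, a log2 ratio of experimental over B6 RNA for each probe, with no normalization visible. The sources used here do not name the tools behind it. Spot intensities are not analysed here, so background and saturation are unknown, and precision is limited by the number of arrays. The log2 of a ratio of 100000 (146 cells) was treated as missing, a choice made after the values were seen.

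Of 20736 probes, 13033 carry 1 gene symbol, 312 several and 7391 none. The gene identifier updated 12850 of the single symbols. Probes were averaged per gene, giving 16411 features, and probes without 1 symbol stayed separate. Each array was centred on its median. Group means were fitted with limma 3.58.1 in R 4.3.3 (lmFit and eBayes, 6 residual and about 1.40 prior degrees of freedom) and tested against 0, between groups, and by an F test over groups. A feature needed a value on every array of the groups compared. Benjamini-Hochberg adjustment ran over all features tested, with a threshold of 0.05. The test against 0 leaves out the spread of B6 and does not cancel dye bias. The fit was tested on simulated data. No pair of groups showed replicate numbers that pair the arrays (15 pairs, correlations of deviations from -0.036 to 0.022).

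The genes chosen for naming were, in each comparison with B6, the 8 largest in each direction past the threshold with both arrays of one sign. To them were added the 5 largest in each direction of each difference, genes called in 4 or more comparisons, the 10 smallest p of the F test, a short list of set genes (Ube2n, Ube2c, Cul1, Cul3, Usp9x, Uchl5 and Josd1 among those measured) and all members of roles with fewer than 6 genes. Not all of the chosen values are described above. Of those left out, Fbxl12 in NOD.H2h4 T cells (-1.49) and Fbxo44 in NODtoB6 T cells (1.17) kept their calls under every alternative computed. Pathway and marker genes named above are the extremes of their lists. Members, lists and rules were chosen with earlier results of these data known.

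Alternatives were no centring, equal spread, a running median along the probe order, features with a value on all 12 arrays, the ratio of 100000 kept, the median of probes, a replicate block, leaving out each array, the NODtoB6 arrays turned and, added after the data were seen, probes with a value on all 12 arrays.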

Additional observations from a re-analysis of the deposited data

Results flagged for a closer look

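Each value here is a difference between groups that passed limma's test of that difference (adjusted p under 0.05 over all features, n = 2 arrays per group, arrays of the groups not overlapping). In NOD.H2h4 minus NOD T cells Josd1 (-3.43), Otud6b (-1.37), Fbxl12 (-1.36), Usp22 (-1.28) and Usp21 (-0.944) were lower in NOD.H2h4, and Fbxo17 (0.713), Usp29 (0.711), Fbxl5 (0.673), Fbxw7 (0.665) and Ube2c (0.597) higher. In B6.NODIdd1,5 T cells minus kidney Fbxo6 (4.26), Fbxl7 (1.45), Usp15 (1.36), Fbxw4 (1.31) and Usp16 (1.25) were higher in T cells, and Fbxl5 (-1.88), Fbxl6 (-1.79), Usp10 (-1.09), Fbxl20 (-0.948) and Fbxl13 (-0.654) lower. In NODtoB6 minus B6toNOD T cells Ube2o (3.52), Usp40 (2.61), Fbxo21 (1.19), Cul2 (1.16) and Fbxo17 (1.15) were higher in NODtoB6, and Fbxw7 (-1.65), Usp1 (-1.31), Ube2c (-1.27), Cul3 (-1.24) and Ube3a (-1.22) lower. The direction of the last set rests on the assumed dye order of the marrow arrays. With the NODtoB6 arrays turned, Ube2c reversed (0.11), Fbxo17 shrank to 0.031 and Ube3a to -0.30. Of 18 named values of this difference, 4 lost the call and 2 reversed when turned. Several of these calls were lost without each of 8 to 10 arrays. They were Fbxl12, Usp22, Usp21 and Ube2c in the first set, Fbxo6, Usp16, Fbxl6 and Fbxl20 in the second and Cul2 in the third. Of all named values, 1 of 12, 5 of 11 and 5 of 18 in the 3 differences kept their call under every setting other than leaving out arrays. Groups of 2 arrays were too small to look for an array that stands apart.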

How the results depend on the processing

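The counts of members called moved by over 1.5 times as deposited, with no centring, to 95 in NOD.H2h4 T cells, 1 in NOD T cells, 47 in B6.NODIdd1,5 kidney and 40 in NOD.H2h4 minus NOD. In that order 63.9%, 1.24%, 33% and 28.4% of all features passed. With arrays scaled to the same spread the counts moved to 24 in NOD T cells, 30 in B6toNOD T cells, 7 in NOD.H2h4 minus NOD and 19 in NODtoB6 minus B6toNOD. All features gave 31.3%, 32.4%, 13.2% and 24.4% there. With probes that had a value on all 12 arrays, NOD T cells had 8, beside 17.8% of all features. Leaving out 1 array gave 18 to 51 in NOD.H2h4 T cells, 1 to 7 in NOD T cells, 21 to 41 in B6.NODIdd1,5 T cells, 13 to 36 in B6.NODIdd1,5 kidney, 12 to 30 in NODtoB6 T cells, 38 to 51 in B6toNOD T cells, 2 to 22 in NOD.H2h4 minus NOD, 4 to 20 in B6.NODIdd1,5 T cells minus kidney, 21 to 44 in NODtoB6 minus B6toNOD and 42 to 71 among the 6 groups. The causes were not tested.

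Of 156 named values, 46 kept direction and call under every alternative, 80 kept them without each array and 67 under every other setting. Size was not part of these counts. Fbxo6 in B6.NODIdd1,5 T cells, among the 46, ran from 1.68 to 5.59 over the alternatives. As deposited 39 lost the call and 13 reversed. In NOD.H2h4 T cells these were Fbxw7 (-0.041), Ube2e3 (-0.058), Usp29 (-0.071), Fbxo17 (-0.11), Fbxo22 (-0.16), Cul3 (-0.41), Usp25 (-0.35) and Usp27x (-0.45). In kidney Fbxw7 (-0.029) reversed, in B6toNOD T cells Fbxl5 (-0.077), Ube2c (-0.18) and Ube3a (-0.0015), and in NOD.H2h4 minus NOD Ube2c (-0.053). With scaled arrays 20 lost the call and Ube2c in NOD.H2h4 minus NOD reversed (-0.060). With a ratio of 100000 kept, Usp15 reversed in kidney (0.42) and in B6.NODIdd1,5 T cells minus kidney (-0.51). With probes that had a value on all 12 arrays, in B6.NODIdd1,5 T cells Usp16 (-0.25), Usp21 (-0.34) and Ube2d3 (-0.30) reversed, as did Otud6b in NODtoB6 T cells (-0.22) and Usp16 in B6.NODIdd1,5 T cells minus kidney (-0.14). With the NODtoB6 arrays turned, Ube2c (0.11) and Uchl1 (1.39) reversed in NODtoB6 minus B6toNOD. The running median ended 9 calls and the median of probes 12.

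The replicate numbers did not pair the arrays. With the replicate block the counts were 38 in NOD.H2h4 T cells, 5 in NOD T cells, 33 in B6.NODIdd1,5 T cells, 25 in B6.NODIdd1,5 kidney, 18 in NODtoB6 T cells, 45 in B6toNOD T cells, 12 in NOD.H2h4 minus NOD, 13 in B6.NODIdd1,5 T cells minus kidney, 29 in NODtoB6 minus B6toNOD and 52 among the 6 groups, and 6 named values lost their call. The shares of all features were, in that order, 38.5%, 10.6%, 29.8%, 32.5%, 26%, 50.9%, 16.7%, 20.6%, 35.8% and 62.3%. Background correction, dim probes and the slide as a block are not analysed here.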
